A study of Mus musculus with 2 samples.

Results

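The genes described here are 37 enzymes that make purine and pyrimidine nucleotides, measured in CH12.LX, an immortalized B cell lymphoma line from a female mouse of the strain B10.H-2aH-4bp/Wts. The members were given as a list of gene symbols, and all 37 of 37 were found among 43346 Ensembl gene entries. Polyadenylated RNA of cells for which no treatment is named was sequenced in 2 libraries, which the labels call biological replicates 1 and 2 of separate biosamples. No second line is named either, so there is 1 group, and each comparison is between genes of a library or between the 2 libraries. The labels do not say whether the biosamples were grown as separate cultures, and the spread between them may be partly technical.

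Cells obtain nucleotides by new synthesis, which builds the purine and pyrimidine rings from amino acids, carbon dioxide and folate-bound carbon, and by salvage, which recycles free bases and nucleosides. Both routes draw on phosphoribosyl pyrophosphate (PRPP), the activated ribose, and feed the same kinases. A further group of enzymes turns ribonucleotides into the deoxynucleotides used for DNA. Lymphocytes that start to divide are known to raise new synthesis, and they are sensitive to its inhibitors. By these roles the list held 15 genes of new synthesis, 10 of salvage, 5 shared by both routes and 7 of deoxynucleotide supply.

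The libraries held 22996547 (replicate 1) and 25715408 (replicate 2) expected counts, which are read counts in which a read matching several genes is split between them. Levels are given as TPM, each transcript's share of all transcripts on a fixed scale, which is corrected for transcript length and can be compared between genes. The cells carried the defining transcripts of B cells: 5 of 5 B cell markers were detected, with summed levels of 1122 and 1225 TPM. Markers of other cell types were low, with summed levels of 2.75 and 3.71 TPM for 4 T cell genes and 2.34 and 2.09 TPM for 3 myeloid genes. Of these and of 2 erythroid, 2 epithelial and 2 fibroblast genes, Cd3g (1.69 and 2.11 TPM), Adgre1 (1.64 and 1.34 TPM) and Epcam (1.22 and 1.21 TPM) passed 1 TPM in both libraries, and Hbb-bs, Krt8 and Col3a1 had 0 counts. The 3 proliferation genes Mki67, Pcna and Top2a summed to 835.8 and 809 TPM.

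All 37 members were detected, that is at 1 TPM or more in both libraries. The same rule found 48.0% of 21474 protein-coding genes. In bulk RNA, fewer cells that express a gene and less RNA per cell cannot be told apart. The median member stood at 94.3 TPM, against 21.03 TPM for the 10317 detected protein-coding genes, and 31 of 37 members lay above that median. In all, 18 members averaged over 100 TPM and 10 averaged under 30 TPM. Together they took 0.525% of TPM in replicate 1 and 0.485% in replicate 2. Counts behind the members ran from 158 for Tk2 to 17780 for Gart.

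**Figure D1:**
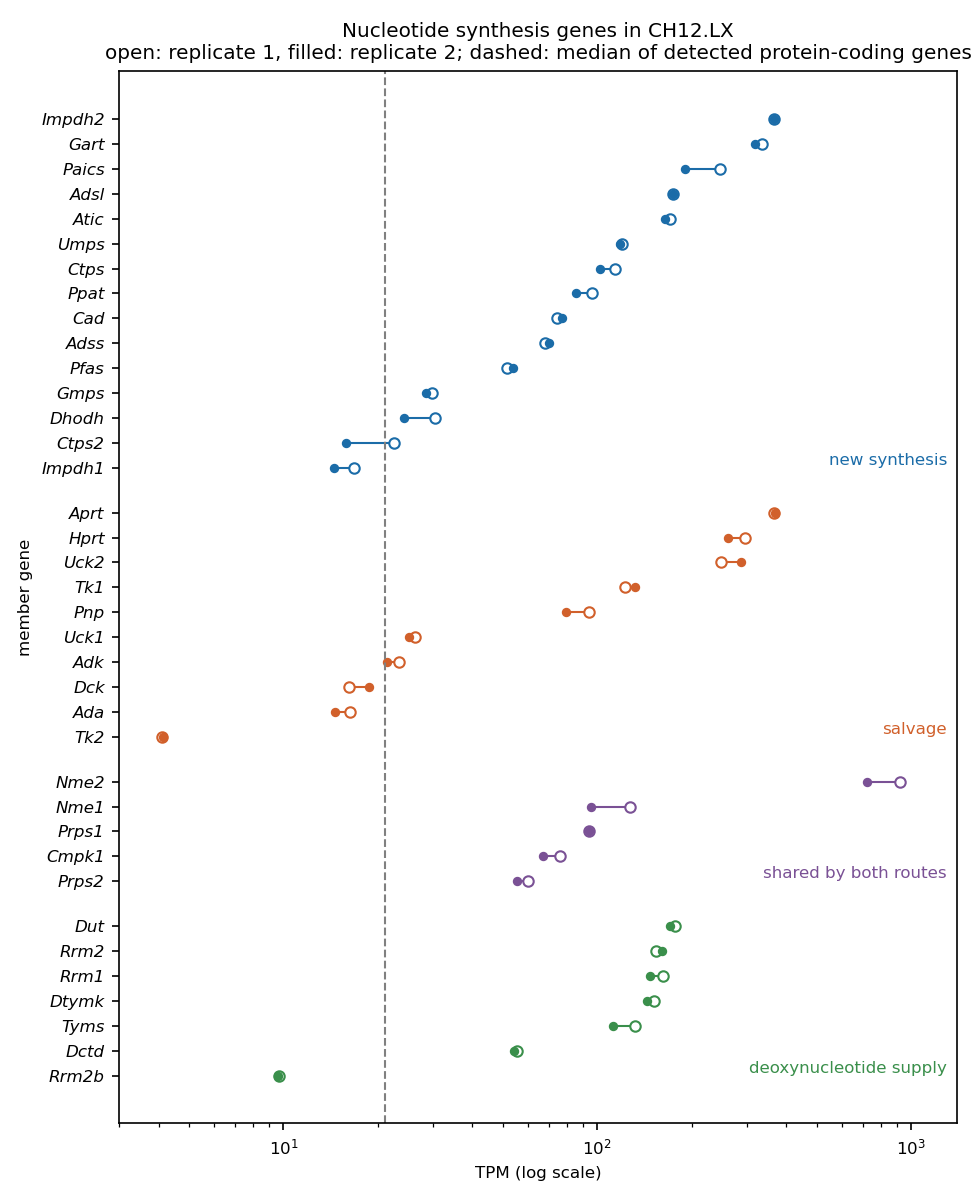
TPM of each member on a log axis, ordered by level within its role; open circles are replicate 1, filled circles replicate 2, and the dashed line is the median of detected protein-coding genes (21.03 TPM). Nme2 stood highest at 922 and 723 TPM and Tk2 lowest at 4.09 and 4.12 TPM.

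Some members share long stretches of sequence with other transcribed genes, and their values depend on how reads were split. Nme1 and Nme2 encode nucleoside diphosphate kinases. Their coding sequences are both 456 bases long and differ at 90 positions, an identity of 80.3%, and the longest identical stretch is 29 bases. The first 60 coding bases are shown with the differing positions in capitals, from the GENCODE M21 transcripts.
Nme1: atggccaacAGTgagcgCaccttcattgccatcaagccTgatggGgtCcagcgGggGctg
Nme2: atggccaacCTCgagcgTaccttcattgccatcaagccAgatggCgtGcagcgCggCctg
No run of 36 bases was identical between these 2 coding sequences. Reads of Nme2 face another partner, the readthrough gene Gm20390 (chr11:93949819-93968293), which spans both genes on the same strand and holds 47.7% of the 36-base words of Nme2 transcripts.

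PRPP synthase has a similar case. Prps1 (chrX:140456613-140476140) and Prps1l3 (chr12:57230412-57239882), a near copy that was chosen for mention after its values were seen, have coding sequences of 954 bases that differ at only 30 positions (96.9% identity). Of the 919 windows of 36 bases, 33.3% were identical, and the longest identical stretch was 164 bases. Capitals mark the 3 differing positions among the first 60 coding bases.
Prps1: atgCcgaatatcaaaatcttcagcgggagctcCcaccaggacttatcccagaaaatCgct
Prps1l3: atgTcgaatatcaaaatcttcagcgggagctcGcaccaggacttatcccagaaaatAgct
Prps1 and Prps2 differ at 191 of the same 954 positions, 18 of them in the first 60 bases, and share no identical window of 36 bases. In all, 28 of 37 members had at least 90% of their 36-base words in no other gene.

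Ring building of purines begins with Ppat, the amidotransferase of the first committed step. Ppat was at 96.2 TPM in replicate 1 and 85.5 TPM in replicate 2. Gart (chr16:91621186-91646952), a protein with several activities of the early steps, was at 334 and 318 TPM. It stood far above Ppat in both libraries, as did the bifunctional enzyme Paics, at 246 and 189.8 TPM. Pfas, which adds an amide nitrogen, had the lowest level of the steps to inosine monophosphate (IMP), at 51.7 and 54.0 TPM. Adsl, the lyase used in this sequence and again in making AMP, was at 174 TPM in both libraries. Atic, which closes the ring, was at 170.3 and 164 TPM. The 6 genes up to IMP summed to 1029 ± 61.5 TPM (SD, n = 2), and the most and least abundant of them, Gart and Pfas, did not overlap between libraries.

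Beyond IMP the route divides. Adss, which leads to AMP, was at 68.3 and 70.3 TPM. On the branch to GMP, Impdh2 (chr9:108560286-108565584), the rate-limiting IMP dehydrogenase of dividing cells, was at 367 and 365 TPM. That was the highest gene level of new synthesis in both libraries. On protein-coding transcripts alone, Impdh2 held 280 and 307 TPM, below the 333 and 317 TPM of Gart. Impdh1, the relative of Impdh2, was at 16.8 and 14.5 TPM by gene level, so that Impdh2 exceeded it 23.5 ± 2.34-fold (n = 2). Gmps, which completes GMP, was at 29.7 and 28.4 TPM. Thus the branch to GMP held both one of the highest and one of the lower levels of the route.

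Reads of Impdh2 could also fall on Impdh2-ps, a processed pseudogene (chr8:100030558-100032102) whose annotated transcript of 1545 bases shares an identical stretch of 611 bases with the leading Impdh2 transcript. It held 42.1% of the 36-base words of Impdh2 and was assigned 2248 and 1607 counts, or 91.2 and 58.6 TPM. The posterior SD of its count, the uncertainty of the split in the deposited tables, was 7.62% and 9.82% of its mean. For Impdh2 the same measure was at most 2.14%, the highest of any member. Whether the pseudogene is transcribed in these cells or received reads of Impdh2 was not tested.

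Pyrimidine rings are built by fewer proteins. Cad, which carries the first enzymes of the route on 1 chain, was at 74.5 and 77.0 TPM. Dhodh, the dehydrogenase of the inner mitochondrial membrane, was at 30.3 and 24.3 TPM. Umps, which yields UMP, was at 119.9 and 119 TPM and stood highest of the 3. CTP synthase was mostly Ctps, at 114 and 102 TPM, against 22.5 and 15.8 TPM for Ctps2, a ratio of 5.76 ± 0.979 (n = 2). The 5 pyrimidine genes summed to 349 ± 16.5 TPM and the 10 purine genes of new synthesis to 1509 ± 63.7 TPM.

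Salvage divided into high and low members, with 5 genes averaging over 75 TPM and the other 5 under 30 TPM. The phosphoribosyltransferases of purine bases were high: Aprt, which recycles adenine, was at 365 and 369 TPM. Hprt, which recycles hypoxanthine and guanine, was at 296 and 261 TPM. Pnp, the phosphorylase that frees these bases from nucleosides, was at 94.0 and 79.3 TPM. Its value is that of an entry filed under another gene identifier, whose transcripts all belong to Pnp in the later annotation.

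Ada and Adk, which act on adenosine, were low, and so was the deoxynucleoside kinase Dck. Ada, the deaminase whose loss causes severe combined immunodeficiency, was at 16.3 and 14.7 TPM, so that Pnp exceeded it 5.59 ± 0.249-fold (n = 2). Adk, adenosine kinase, was at 23.4 and 21.4 TPM. Dck, the deoxycytidine kinase that activates several nucleoside drugs, was at 16.1 and 18.8 TPM. These 3 genes lay within a narrow band in both libraries, below Hprt and Aprt by over an order of magnitude.

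Nucleoside kinases of pyrimidine salvage came in unequal pairs. Uck2, a uridine and cytidine kinase, was at 247 and 286 TPM against 26.2 and 25.1 TPM for Uck1. The ratio of these gene levels was 10.4 ± 1.38 (n = 2). On protein-coding transcripts alone, Uck2 held 119 and 151 TPM and Uck1 20.6 and 19.7 TPM. Tk1, the cytosolic thymidine kinase of cycling cells, was at 122 and 132 TPM, with 76.0 and 68.4 TPM on its protein-coding transcript. Tk2, its mitochondrial counterpart, was at 4.09 and 4.12 TPM and the least abundant member. The ratio of the gene levels of Tk1 and Tk2 was 30.9 ± 1.41. No value of the lower gene reached that of the higher one in these pairs.

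**Figure D2:**
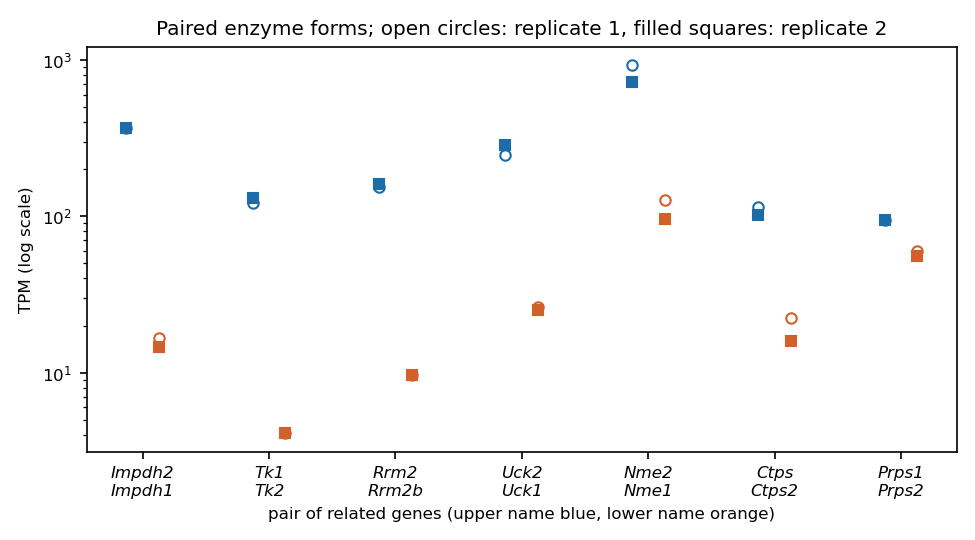
TPM on a log axis for 7 pairs of related genes, the more abundant in blue and the other in orange; open circles are replicate 1 and filled squares replicate 2. By these gene levels the gap was widest for Tk1 over Tk2 (30.9-fold) and narrowest for Prps1 over Prps2 (1.63-fold). On protein-coding transcripts alone, Tk1 held 76.0 and 68.4 TPM against 4.09 and 4.12 TPM for Tk2. Rrm2 held 151 and 157 TPM there against 7.41 and 7.09 TPM for Rrm2b, the wider gap of these 2 pairs.

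Set against each other, the 15 genes of new synthesis summed to 1858 ± 80.1 TPM and the 10 of salvage to 1211 TPM in the mean, with 1210 and 1212 TPM in the libraries. The ratio of the sums was 1.58 in replicate 1 and 1.49 in replicate 2, with a mean of 1.53 ± 0.0678. The ratio of the class medians was 1.62 ± 0.0257, from 90.9 TPM for new synthesis and 56.2 TPM for salvage. The ratio of mean TPM per gene was 1.06 in replicate 1 and 0.991 in replicate 2, so the larger sum went with the larger number of genes. The ratio of sums was 1.14 without the 4 genes beyond IMP. The median ratio moved most, to 3.25 without Impdh2 and Uck2, since the salvage median lies in the gap between Pnp and Uck1. Genes are not replicates, and these ratios were not tested. Messenger levels of different enzymes do not measure the flow through either route.

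Within purines alone, new synthesis exceeded salvage of bases and nucleosides 1.96-fold in both libraries, with 10 genes against 5. For pyrimidines, the 5 genes of new synthesis stood against the 2 uridine kinases at 1.32 in replicate 1 and 1.09 in replicate 2.

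Among genes shared by both routes, Prps1 was at 94.3 and 94.2 TPM and Prps2 at 59.99 and 55.7 TPM. Both make PRPP, and the ratio of their gene levels, 1.63 ± 0.0848, was the most even of the 7 pairs of related members. Prps1l3 was assigned 65.0 and 67.9 TPM, near the gene level of Prps2. On protein-coding transcripts alone, Prps2 held 32.3 and 40.0 TPM, below Prps1l3, and Prps1 held 91.9 and 94.2 TPM. Cmpk1, the kinase of UMP and CMP, was at 75.9 and 67.0 TPM.

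The highest level of any member was that of Nme2, at 922 and 723 TPM, with Nme1 at 127 and 95.5 TPM. The readthrough gene Gm20390 was assigned 599 and 490.4 TPM, between them. The locus as a whole held 1648 and 1309 TPM, of which Nme2 took 56.0% and 55.3%, Gm20390 36.3% and 37.5%, and Nme1 7.70% and 7.29%. These shares were close between libraries while the sum fell, but the split itself is an estimate. The posterior SD of the count was at most 1.44% of its mean for Nme2, 0.665% for Nme1 and 1.80% for Gm20390. Whether the split is right was not tested.

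By gene level, deoxynucleotide supply held 5 genes that averaged over 75 TPM, with Dctd and Rrm2b below them. Ribonucleotide reductase joins a large subunit, Rrm1, at 162 and 147 TPM, and a small subunit, Rrm2, at 154 and 160.4 TPM. Their ratio was 1.05 in replicate 1 and 0.916 in replicate 2, so that neither was higher in both libraries. Rrm2b, the small subunit known as a target of p53 that serves resting cells, was at 9.68 and 9.59 TPM, and Rrm2 exceeded it 16.3 ± 0.569-fold (n = 2).

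By gene level, the thymidylate genes other than Dctd lay close to Rrm1 and Rrm2. Tyms, which methylates dUMP, was at 132 and 112 TPM, but with only 4.15 and 5.76 TPM on its protein-coding transcript. Dtymk, the next kinase toward dTTP, was at 152 and 145 TPM. Dut, which removes dUTP and provides dUMP, was at 177 and 171 TPM, and Dctd, the deaminase that also feeds dUMP, was at 55.4 and 54.3 TPM. Excluding Dctd and Rrm2b, the gene levels of deoxynucleotide supply spanned 112 to 177 TPM over both libraries.

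The gene levels above add up all annotated transcripts of a gene, and several members had much of their level on transcripts that are not annotated to make the full protein. For 31 of 37 members the same transcript held over 50% of TPM in both libraries, and 18 had over 80% on it. The leading transcript was the same in both libraries for 36 members, Paics being the exception, with Paics-202 at 45.3% and 44.3% and Paics-203 at 38.8% and 46.9%. Both encode the same 1275 coding bases. By counts, 27 of 37 members had at least 90% on transcripts of the protein-coding type in both libraries. That type includes forms with a shorter coding part. Dtymk-202 has 240 coding bases against 636 for Dtymk-201, and Ctps2-203 has 453 against 1758 for Ctps2-206.

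Gart showed a long and a short coding transcript. The long form, Gart-201 with 3518 bases and 3030 coding bases, held 76.5% and 75.3% of TPM. The short form, Gart-202 with 1865 bases and 1299 coding bases, held 23.2% and 24.5%. The short form is known to carry only the first of the enzyme's activities, and its share was nearly equal in both libraries. An antisense gene, Gm15964, named after its values were seen, overlaps Gart and held 16.7% of its 36-base words, at 4.44 and 3.20 TPM.

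Tyms and Dhodh had the smallest shares on protein-coding transcripts. Tyms-205, annotated as subject to nonsense-mediated decay, held 59.5% and 58.3% of TPM, and the intron-retaining Tyms-202 held 31.9% and 30.2%. The protein-coding Tyms-201 held 3.14% and 5.13% of TPM, or 10.2% and 15.1% of the gene's counts. Dhodh gave 48.6% and 57.4% to a transcript with no entry in the later annotation, followed by the intron-retaining Dhodh-204 with 22.4% and 25.8%. Its annotated protein-coding transcripts held 3.89% and 0% of TPM, without that leading transcript, whose type is not known here. So the level of Tyms rested mostly on short forms.

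Decay-type transcripts led in 3 more members. For Adsl, Adsl-205 held 47.1% and 46.4% of TPM, ahead of the coding Adsl-204 with 35.5% and 26.2%. Coding forms of Adsl held 43.8% and 45.1% of the counts. For Cmpk1, the short Cmpk1-204 held 63.2% and 55.2% of TPM, although 74.3% and 77.9% of the counts were on the coding form. For Uck2, Uck2-205 held 50.4% and 47.3%, ahead of the coding Uck2-202 with 32.5% and 27.8%, although 73.6% and 73.2% of the counts were on coding forms. A short transcript turns few reads into a high TPM, but Adsl-205, with 1932 bases, is longer than Adsl-204, with 1278 bases. All these shares are estimates from reads that several forms of a gene hold in common.

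In the other members whose second transcript held at least 20% in both libraries, the leading form was of the coding type. Ppat-202 held 59.1% and 56.1%, beside the intron-retaining Ppat-201 with 40.9% and 43.9%. Prps2-201 held 53.8% and 71.8%. Impdh1-201 held 60.4% and 64.8%. Rrm2b-201 held 66.1% and 67.7%. Ppat, Prps2, Impdh1 and Rrm2b had a shorter second form. Dtymk-201 held 58.8% and 55.3%. Ctps2 was led by the short coding Ctps2-203, with 47.1% and 37.1%.

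**Figure D3:**
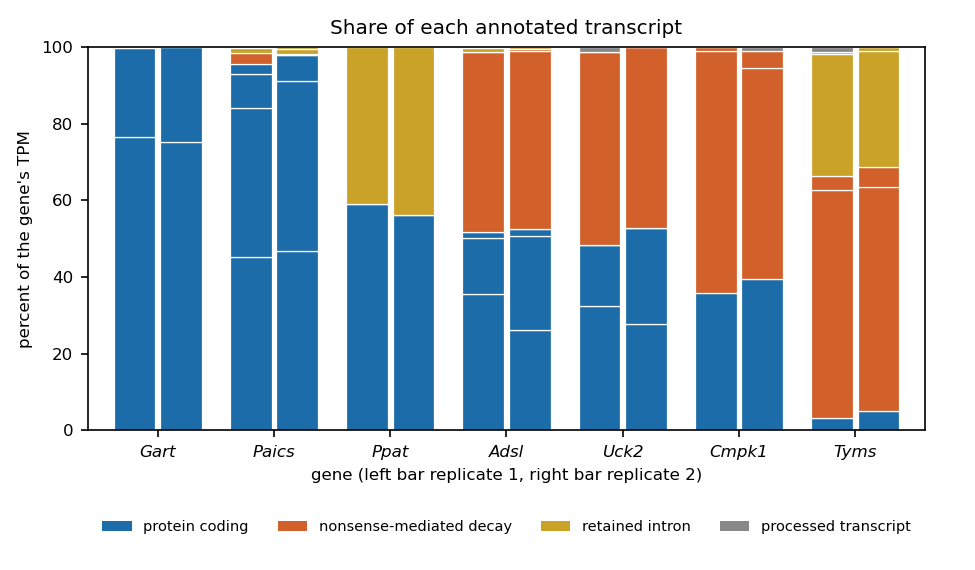
Percent of each gene's TPM on its annotated transcripts for 7 members, left bar replicate 1 and right bar replicate 2, coloured by transcript type with white lines between transcripts. Gart was nearly all protein coding (99.7% and 99.9%), whereas Tyms had 3.14% and 5.13% on its coding transcript.

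Ppat and Paics are neighbours on chromosome 5 that are read in opposite directions. The RefSeq start sites lie at 76951578 for Ppat, on the minus strand, and 76951302 for Paics, on the plus strand, so the 2 transcribed spans overlap by 277 bases. Paics was higher than Ppat by 2.56-fold in replicate 1 and 2.22-fold in replicate 2. Whether counting used the strand is not given in the sources used here, and without it reads of the overlap could be assigned to either gene.

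Promoter windows of 300 bases, from 250 before to 50 after the RefSeq start site on GRCm38.p6, were at hand for 34 members, and not for Pfas, Rrm2b and Dhodh. The E-box CACGTG, known as the site bound by MYC and by other factors of its kind, was searched because MYC is known to act on nucleotide genes. It occurred in 6 of 34 members (17.6%), against 8.09% of all genes and 12.1% of detected protein-coding genes with a window. The windows are shown with the E-box in capitals and up to 20 bases on either side, ending at the start site, with 1 of the 2 windows of Nme1.
Atic chr1:71557129-71557155 (+): gaggggcgggacctcggggtCACGTGg
Dtymk chr1:93802057-93802102 (-): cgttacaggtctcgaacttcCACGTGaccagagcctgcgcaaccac
Impdh2 chr9:108560306-108560351 (+): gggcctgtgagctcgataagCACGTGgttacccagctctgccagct
Nme1 chr11:93968029-93968074 (-): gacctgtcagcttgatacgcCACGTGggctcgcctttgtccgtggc
Paics chr5:76951079-76951124 (+): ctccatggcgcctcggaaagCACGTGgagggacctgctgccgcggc
Tyms chr5:30073661-30073706 (-): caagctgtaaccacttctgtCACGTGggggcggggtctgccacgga
The 6 genes ranged from 111 to 366 TPM with a median of 158 TPM, and the other 28 from 4.11 to 823 TPM with a median of 88.8 TPM. The ranges overlapped and no test was made.

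Other motifs were searched on both strands in the same windows. The GC box GGGCGG was in 82.4% of members, 38.2% of all genes and 69.6% of detected protein-coding genes. In the same order, CCAAT was in 41.2%, 41.1% and 43.7%, and TATAAA in 8.82%, 15.7% and 7.96%. CCGGAAG, the core of many ETS sites, was in 23.5%, 9.93% and 22.9%. A match of letters is no evidence of binding, and the members' shares were not tested against the others.

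Of 63 measured genes around these routes (breakdown, nucleotidases, further kinases, PRPP synthase relatives, transporters and folate supply), 41 were detected. The same rule found 48.0% of all protein-coding genes. Shmt2, the mitochondrial source of folate-bound carbon, was at 213 and 234 TPM, and its cytosolic form Shmt1 was at 137 and 129 TPM. Mthfd1, which prepares the carbon units used by Gart and Atic, was at 98.7 and 89.5 TPM. All 4 folate genes were detected.

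Kinases and enzymes that hydrolyse nucleotides were also among the 8 highest. Ak6 averaged 183 TPM and Guk1, which phosphorylates GMP, 93.5 TPM. Dctpp1, which hydrolyses unwanted deoxynucleotides, averaged 154 TPM, and the nucleotidase Nt5c averaged 138 TPM. Ak6, Dctpp1 and Nt5c thus lay above the median member, and Guk1 lay beside it. Of nucleotidases and deoxynucleotide control, 10 of 11 were detected, beside 48.0% of all protein-coding genes.

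Of 13 measured genes of purine breakdown and interconversion 6 were detected, and of 10 of pyrimidine breakdown and further salvage 4. Both shares were near the 48.0% of all protein-coding genes, so they are no result about breakdown enzymes as a group. Xdh, which makes uric acid, had 0 counts in either library; taken as 3 counts, the upper limit is 0.0403 TPM in replicate 1 and 0.0362 TPM in replicate 2. Cda, the cytidine deaminase, had 0 counts as well, with upper limits of 0.246 and 0.222 TPM. Dpyd and Dpys, the first steps of pyrimidine breakdown, and the uridine phosphorylase Upp2 also had 0 counts. Mtap, which recovers adenine from methylthioadenosine, had 0 counts, with upper limits of 0.112 and 0.101 TPM.

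The other genes under the detection limit were Uox, Gda, Ampd1, Ampd3, Pnp2, Upp1, Tymp, Nt5e, Ak5, Ak7, Cmpk2, Nme4, Prps1l1, Slc29a4, Slc28a1 and Slc28a3. Tymp was at 0.84 and 1.20 TPM and thus passed in replicate 2 alone. Nt5e, a nucleotidase of the cell surface, was at 0.20 and 0.25 TPM. Pnp2, a near copy of Pnp, had 9.41 and 1.62 counts. Of 7 nucleoside transporters 4 were detected, near the 48.0% of all protein-coding genes and so no result about transporters as a group.

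**Figure D4:**
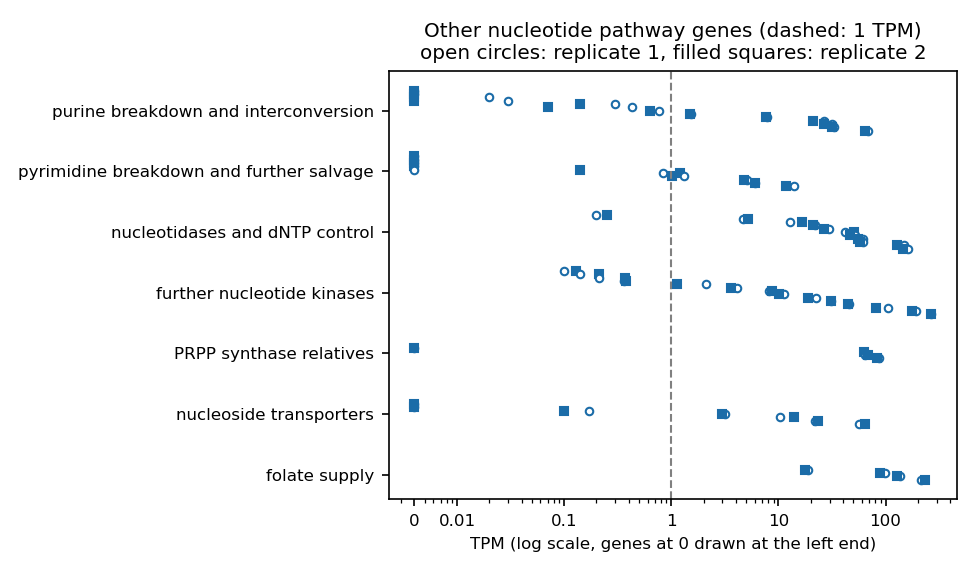
TPM of 63 other nucleotide pathway genes on a log axis by list, open circles replicate 1 and filled squares replicate 2, genes at 0 drawn at the left end and the dashed line at 1 TPM. All 4 folate genes lay above the line, while 6 of 13 purine and 4 of 10 pyrimidine breakdown genes did so in both libraries.

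Members differed little between the libraries. The SD of TPM had a median of 5.08% of the mean over members and 7.05% over detected protein-coding genes. By counts scaled to TMM library sizes, 36 of 37 members lay within 0.25 on the log2 scale. How many of all genes did so was not counted. The median of replicate 2 over replicate 1 was -0.033 for members, beside 0.002 over all 15340 genes tested. A two-sided exact binomial test, which holds counting error only, called 18 of 37 members (48.6%) at an adjusted p of 0.05. The background was 30.6% of all genes and 38.9% of the well-counted ones, those that averaged 100 counts or more. In replicate 2, 7 members were higher (18.9%) and 11 were lower (29.7%). Over all tested genes, not the well-counted ones alone, these shares were 14.7% and 15.9%. The test compares these libraries and not conditions.

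The largest difference was that of Nme2, with 10860 counts in replicate 1 and 9682 in replicate 2, a log2 ratio of -0.30 (counting SE 0.0202, adjusted p = 3.65e-49, exact binomial test). Nme1 was lower at -0.23 and so was Gm20390 at -0.27. Gm20390 shares sequence with both Nme1 and Nme2, so these values are not independent of each other. Paics was lower at -0.20 and its neighbour Ppat at -0.18. Pnp, Hprt, Dhodh, Rrm1, Ctps, Ctps2 and Gart made up the other members that were lower, from -0.23 for Pnp to -0.06 for Gart.

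Higher in replicate 2 were Dck and Prps2 (log2 ratio 0.24 and 0.23), Rrm2 (0.20), Cad (0.15), Impdh2 (0.14), Uck2 (0.10) and Pfas (0.08). The TPM of Prps2 and Impdh2 was slightly lower in replicate 2, since the estimated transcript shares and hence the gene length also changed. Rrm1 and Rrm2, subunits of 1 enzyme, moved in opposite directions, by -0.12 and 0.20.

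None of these differences reached 0.5 on the log2 scale, a size that 7.62% of all genes passed with the same test. When the spread between genes of the 2 libraries was included, in edgeR's negative binomial exact test, 0 members were called, and 0 had an unadjusted p under 0.05. That test called 2.54% of all genes with the dispersion taken over all genes, and 4.94% with the dispersion of genes with certain read assignment. The libraries were treated as 1 group for that dispersion, which therefore also holds any difference between them. Beside the members, 5 of 5 B cell markers were called higher in replicate 2 and 2 of 3 proliferation genes lower, by the exact binomial test. Over all genes, that test called 14.7% higher and 15.9% lower. The negative binomial test, with the dispersion taken over all genes, called none of these markers. Whether such marker differences have a part in those of the members was not tested.

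**Figure D5:**
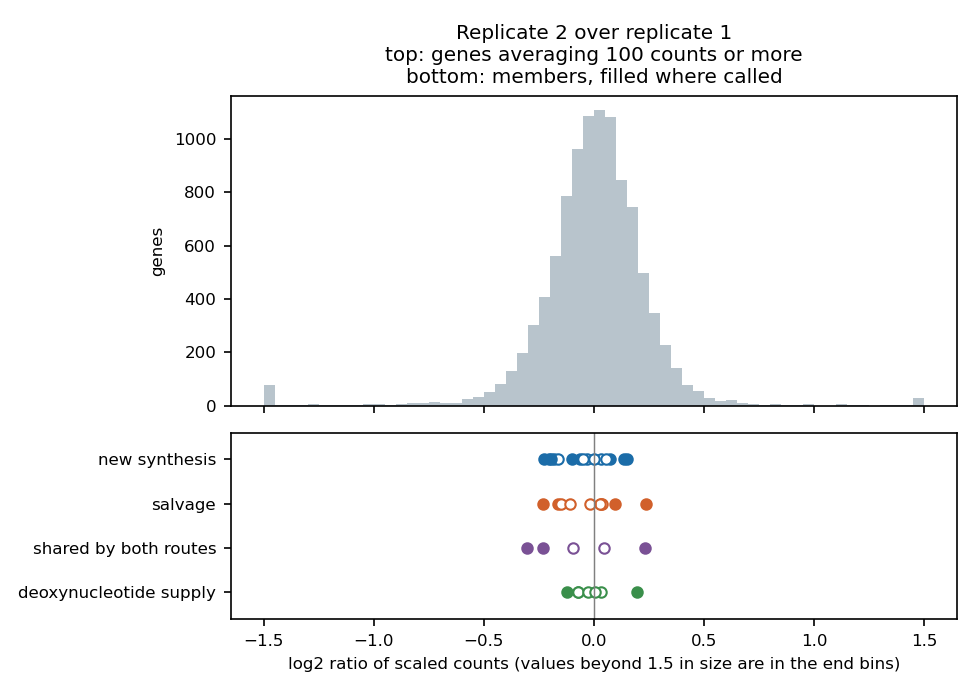
Log2 ratio of scaled counts, replicate 2 over replicate 1: the upper panel counts genes averaging 100 counts or more, and the lower panel shows the members by role, filled where the exact binomial test called them. Members lay between -0.30 and 0.24.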

How the data were processed

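Each library came with a gene and a transcript table on mm10 with the GENCODE M4 annotation, per the file headers and deposited notes. Of the aligner, the counting tool and the use of strand, nothing is stated in what was used here. As deposited, the expected counts and posterior mean counts are estimated counts per gene. The deposited TPM and FPKM are scaled by the authors to length and depth, and the deposited percent values are the share of a gene's TPM on each transcript. The deposited posterior SD was used as a score of how surely reads were assigned.

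Members were matched by Ensembl identifier without version to GENCODE M21 (GRCm38, the assembly of mm10). Of 43346 entries, 98.0% matched. Pnp was matched by its transcripts. Prtfdc1 was not analysed here. Numbered entries without a gene name (0.0426% and 0.0539% of counts) were left out.

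Expected counts were rounded. Genes with at least 10 counts over both libraries (15340) went into an exact binomial test, two-sided, against TMM library sizes (edgeR 4.0.16), with Benjamini-Hochberg adjustment at 0.05. Log2 ratios used a pseudocount of 0.5. Means ± SD are over n = 2, and counting errors and floors of 3 counts cover counting error only, since reads are not independent molecules. In data simulated for replicate 2 against replicate 1, 15340 genes were drawn with counting error only. Called were 65 of 100 genes changed by 1.5-fold, 81 of 100 changed by 2-fold and 12 of 15140 unchanged genes. Spread beyond counting error was not simulated, so these numbers do not show how often the test errs in the real libraries.

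The genes named are all members, the 8 most abundant and all undetected other pathway genes, genes that share over 20% of a member's 36-base words with at least 10 counts, and leading transcripts where the second held at least 20% in both libraries. A gene that this rule names is not reported here. Members, lists and rules were chosen with earlier results of these data known. Alternatives covered units, thresholds, class membership, scaling (DESeq2 1.42.0 among them) and each library alone.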

Additional observations from a re-analysis of the deposited data

How the results depend on the processing

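All 37 members were detected under each alternative except 5 TPM, where Tk2 was lost (36). Other pathway genes detected ranged from 34 at 5 TPM to 43 at 0.5 TPM. The summed ratio of new synthesis over salvage was 1.14 without Adss, Impdh1, Impdh2 and Gmps, 1.43 without Ctps and Ctps2 and 1.68 without Ada and Pnp. The ratio of medians was 1.92, 1.62 and 1.19 in the same order. It was 1.42 over protein-coding transcripts only and 3.25 without Impdh2 and Uck2, both added after seeing the data. Replicate 1 alone gave 1.58 for the sums and 1.60 for the medians, and replicate 2 alone gave 1.49 and 1.64. No member had uncertain read assignment by the posterior SD. Members called different numbered 16 to 19 under other scalings, filters and counts, but 0 under either negative binomial test and 0 with a log2 ratio of at least 0.5. Members with 1 transcript over 50% in both libraries numbered 31, against 18 at 80%. The cause of these shifts was not tested. No paired analysis was possible because there is 1 group. With 2 libraries, the SD itself is imprecise.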

Other observations

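Mtap (chr4:89137122-89181081) was 1 of 7 neighbouring protein-coding genes with 0 counts in both libraries, among them Cdkn2a, Cdkn2b and Dmrta1. The run ended at Ifne (1 and 0 counts) and Gm12666 (2.03 and 4.21 counts), which were not detected either. The nearest detected protein-coding genes were Klhl9 on one side, at 12.5 and 14.0 TPM, and Caap1 on the other, at 14.8 and 13.8 TPM. Between Klhl9 and Caap1 lay 31 protein-coding genes over 5777615 bases, so neither is a direct neighbour of the run. Over all protein-coding genes, 28.9% had 0 counts in both libraries. The neighbours of Mtap were named after their values were seen.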
